A study of Homo sapiens with 18 samples.

Results

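Lysosomes digest proteins, lipids and sugars delivered by endocytosis and autophagy. Their soluble hydrolases work at acid pH, which the vacuolar H+-ATPase maintains by pumping protons across a membrane lined with heavily glycosylated proteins. In autophagy a double membrane carrying ATG8-family proteins encloses cytosolic cargo and fuses with the lysosome, and neurons, which do not dilute damaged components by dividing, are known to depend on this route. The genes described here are 41 named members of that system, compared as 5 classes, namely cathepsins, other hydrolases, membrane and luminal transport proteins, the proton pump, and autophagy. A probe set was taken as a member when the platform annotation assigned it to exactly 1 of these genes. This gave 77 probe sets for 39 of the 41 genes, among 11963 genes on the array. GLB1 and ATP6V1F were represented only by probe sets shared with another gene and have no value here. CTSZ and WIPI1 lay below the level filter, a signal of 344.7, so 37 members were among the 7178 genes tested.

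The cells were SH-SY5Y, an established human neuroblastoma line of noradrenergic character that is used as a model of neurons. Sarin (GB) is an organophosphate nerve agent known for inhibiting acetylcholinesterase. The study asked how gene expression in these cells changes with time of exposure, and each of its 6 groups holds 3 arrays: untreated cells at 3, 24 and 48 h, and cells given sarin at 5 ppm for 3, 24 and 48 h. The labels name 6 flasks for each group beside its 3 arrays without saying how they were pooled, so p-values measure only the spread between arrays, which may be technical. A single tumour line cannot stand for other neurons, and in bulk RNA fewer cells of a type cannot be told apart from less RNA per cell.

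The line matched its markers, with 9 of 10 measured noradrenergic genes above background on all 18 arrays. Of 4 measured glial markers, MBP was above background on 18 arrays, GFAP on 11, AQP4 on 5 and S100B on 0. Fibroblast markers (collagens and DCN) were above background as well, 4 of 5 on all arrays. Their summed signals were 5016.7 to 5285.7 on the sarin arrays at 24 h and 5331.3 to 7808 on the others, and the part of this in the results at 24 h was not tested. The 3 arrays of sarin at 48 h stood apart from the rest. Their correlation with the other 15 arrays over genes tested was 0.365 to 0.559, against 0.888 to 0.977 among those 15, and the signal ratio of the 3′ to the 5′ GAPDH probe set was 2.15 to 2.3, against 0.696 to 1.17. The 90th percentile of unspiked control probe sets, taken here as the background signal, was 411 to 443 on those 3 arrays and 97 to 183 on the others. The 48 h results are therefore described after the earlier times, with these values beside them.

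At 24 h, 5 of the 37 members differed between sarin and control, 4 lower and 1 higher. Those that fell were CTSH and CTSB, which encode cathepsins H and B, SCARB2, which encodes the membrane receptor that carries glucocerebrosidase to lysosomes, and ATP6V1C1, a subunit of the cytosolic sector of the proton pump. LAMP1, an abundant glycoprotein of the lysosomal membrane, rose. The test was limma across all genes with Benjamini-Hochberg adjustment at 0.05, and it called 8.67% of all genes tested in this comparison (622, of which 295 were higher and 327 lower), against the 5 of 37 members. The median change of the members was 0.05 on the log2 scale, with 20 above and 17 below 0, and that of all genes was -0.07. Sarin arrays lay wholly above their controls in 6 members and wholly below in 8, against 17.2% and 23.2% of all genes tested. The plot of changes at 3 and 24 h shows members of the same class on both sides of 0, and CTSC, not called, had a larger but less precise change than LAMP1.

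**Figure D1:**
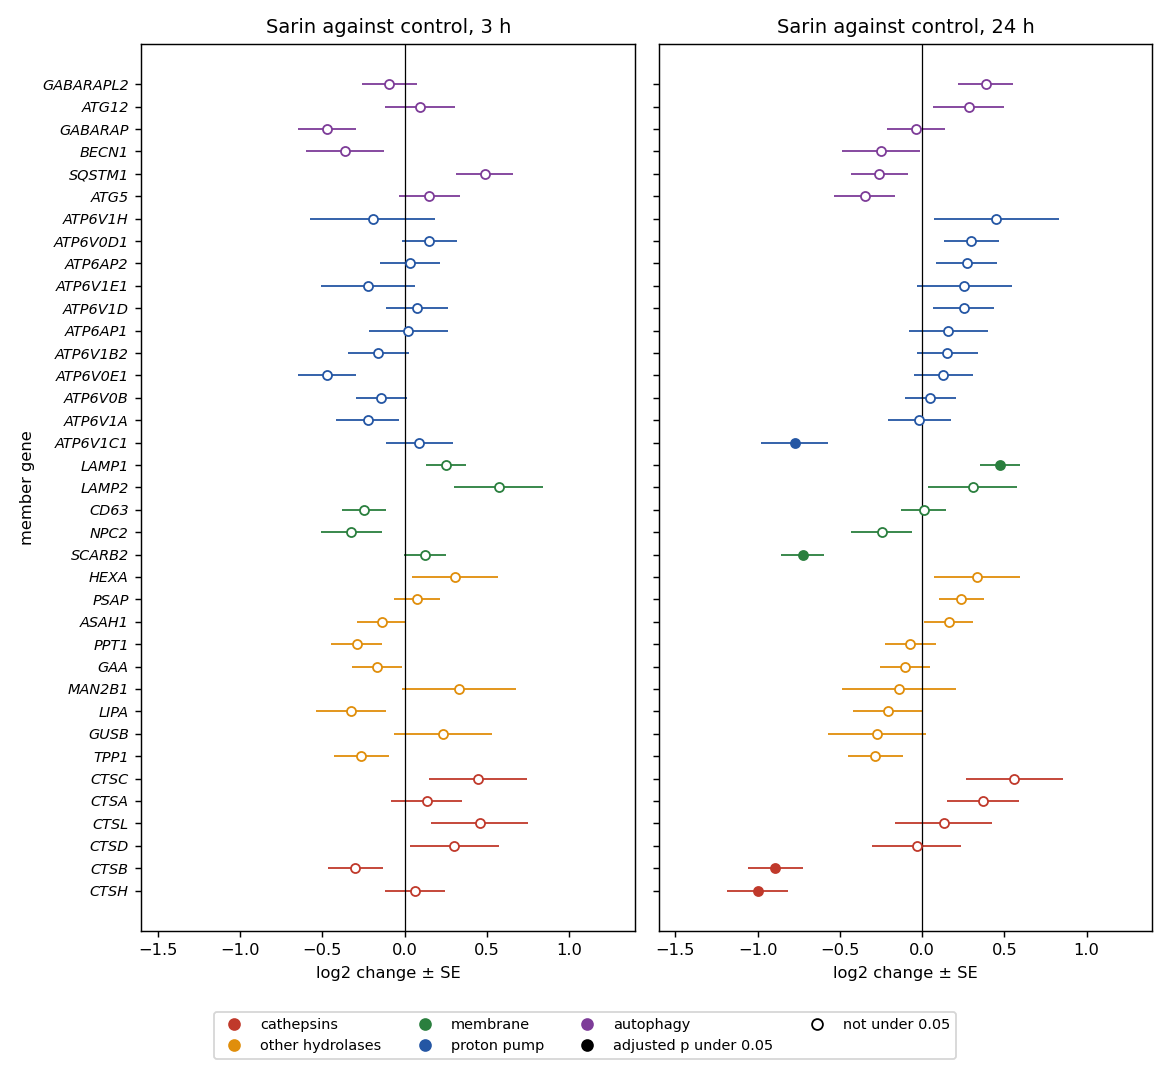
Log2 change (sarin against control) with its standard error for the 37 members tested, at 3 h (left) and 24 h (right), ordered within class by the 24 h value; filled points have an adjusted p under 0.05. No member is filled at 3 h, and at 24 h CTSH (-1.00), CTSB (-0.89), ATP6V1C1 (-0.77), SCARB2 (-0.73) and LAMP1 (0.47) are.

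Of the cathepsins, the proteases of the lysosome, CTSH had signals of 491.3, 507.5 and 480.1 on the sarin arrays at 24 h and 807, 1080.1 and 1152.5 on the matching controls. The sarin arrays were lower than every control array, and the change was -1.00 ± 0.18 on the log2 scale (SE, 3 arrays against 3; limma adjusted p = 0.00261). CTSB had signals of 1853.2, 2053.7 and 1782.2 with sarin and 3524.3, 3129.9 and 3973.3 without. Again the groups did not overlap, and the change was -0.89 ± 0.17 (limma adjusted p = 0.00303). CTSB has 3 further probe sets, with changes of -0.74 ± 0.53, -0.18 ± 0.21 and -0.59 ± 0.20, and none of these passed the test. The other tested cathepsins were not called. CTSC, the dipeptidyl peptidase that activates other proteases, had a change of 0.56 ± 0.30, CTSA, which protects lysosomal sialidase and galactosidase, had 0.37 ± 0.22, CTSL had 0.13 ± 0.29 and CTSD, the main aspartic protease of the lysosome, had -0.03 ± 0.27. The 95% interval for CTSD ran from -0.60 to 0.53, which leaves room for changes of the size of some that were called. CTSZ, below the level filter, had a change of 0.48 ± 0.42 in the fit to all probe sets.

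None of the 9 measured other hydrolases was called at 24 h. The changes of their brightest probe sets ran from -0.28 to 0.33 with a median of -0.10. HEXA, the alpha subunit of beta-hexosaminidase, had the largest of these changes, with signals of 619.1, 537.4 and 611 with sarin and 340.7, 503.2 and 579.4 without. These groups overlapped, and the change was 0.33 ± 0.26 (limma adjusted p = 0.452). TPP1, a tripeptidyl peptidase, had signals of 1003.6, 1046 and 1251.6 with sarin and 1297.4, 1354.5 and 1361.6 without. All sarin arrays were below all controls, yet the change of -0.28 ± 0.17 did not pass (limma adjusted p = 0.292). A second TPP1 probe set lay further apart, with 743.2, 842.5 and 739.8 with sarin and 1107.8, 1425.7 and 1366.7 without. A dimmer one overlapped, with 381.7, 285.4 and 329.2 against 177.9, 344.6 and 396.4, and the last was above background on 0 arrays. The changes were 0.24 ± 0.14 for PSAP, the precursor of the saposins that present lipids to hydrolases, and 0.16 ± 0.15 for ASAH1, acid ceramidase. They were -0.27 ± 0.30 for GUSB, beta-glucuronidase, -0.21 ± 0.21 for LIPA, lysosomal acid lipase, and -0.14 ± 0.35 for MAN2B1, lysosomal alpha-mannosidase. GAA, acid alpha-glucosidase, had -0.10 ± 0.15 and PPT1, which removes palmitate from proteins, had -0.07 ± 0.16.

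Among the membrane and transport proteins the calls went in both directions. SCARB2 had signals of 1595.5, 1421.8 and 1512.2 with sarin at 24 h and 2386.1, 2563.1 and 2572.3 without. The groups were well separated, and the change was -0.73 ± 0.13 (limma adjusted p = 0.00225). A further SCARB2 probe set also fell, by 0.50 ± 0.13 on the log2 scale (limma adjusted p = 0.0441 over all probe sets), and its remaining one had -0.34 ± 0.26. LAMP1 had signals of 10411.7, 10088.8 and 9367.7 with sarin and 6335.6, 7194.2 and 8036.1 without. All sarin arrays were above all controls, and the change was 0.47 ± 0.12 (limma adjusted p = 0.0236). The other LAMP1 probe sets had changes of 0.09 ± 0.19, -0.18 ± 0.30 and 0.98 ± 0.44, none of which passed. LAMP2, the lysosomal partner of LAMP1 that is also used in chaperone-mediated autophagy, had a change of 0.31 ± 0.27. CD63, a tetraspanin of late endosomes, had 0.01 ± 0.14 and NPC2, a soluble luminal protein that hands cholesterol to NPC1, had -0.25 ± 0.19.

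In the proton pump, 9 of 11 tested members had changes above 0 and 1, below 0, was called. ATP6V1C1 encodes subunit C, which joins the cytosolic and membrane sectors, and had signals of 636.4, 805.4 and 593.1 with sarin at 24 h and 1054.1, 1208.7 and 1230 without. The groups did not overlap, and the change was -0.77 ± 0.20 (limma adjusted p = 0.0251). Its other probe sets had 0.09 ± 0.27 and -0.30 ± 0.28. The remaining subunits of the cytosolic sector had changes of 0.45 ± 0.38 (ATP6V1H), 0.26 ± 0.29 (ATP6V1E1), 0.25 ± 0.19 (ATP6V1D), 0.15 ± 0.18 (ATP6V1B2) and -0.02 ± 0.19 (ATP6V1A, the catalytic subunit). Those of the membrane sector, which carries the protons, had 0.30 ± 0.17 (ATP6V0D1), 0.13 ± 0.18 (ATP6V0E1) and 0.05 ± 0.15 (ATP6V0B). The accessory proteins ATP6AP2 and ATP6AP1 had 0.27 ± 0.18 and 0.16 ± 0.24. These values are of the brightest probe sets. A dimmer ATP6V0E1 probe set had 3303.3, 3191.1 and 3603.3 with sarin and 1782, 2195.2 and 2476.7 without. A dimmer ATP6AP2 probe set had 3126.4, 3610.8 and 2635.3 with sarin and 2380.2, 1488.6 and 2149.2 without. Neither pair of groups overlapped, while among the remaining probe sets of these genes some did. The median of this class was 0.16, but over all genes the median at 24 h moved with signal, from -0.33 in the 718 genes of lowest signal to 0.13 in the 718 of highest signal, and the part of this in the class median was not tested.

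No autophagy member was called at 24 h. GABARAPL2, an ATG8-family protein of the autophagosome membrane, had signals of 5331.4, 4784.4 and 4130 with sarin and 3637.4, 3326.1 and 3882.7 without. The sarin arrays were higher without overlap, and the change of 0.39 ± 0.17 did not pass (limma adjusted p = 0.15). ATG5, which is joined to ATG12 in the complex that attaches lipid to ATG8 proteins, had signals of 815.3, 738.2 and 689.1 with sarin and 974.5, 883.8 and 1010.6 without. Here the sarin arrays were lower without overlap, with a change of -0.35 ± 0.18 (limma adjusted p = 0.237). ATG12 had 0.28 ± 0.21, GABARAP had -0.04 ± 0.18 and BECN1, a subunit of the lipid kinase complex that starts the membrane, had -0.25 ± 0.24. SQSTM1, the cargo receptor p62, had -0.26 ± 0.17, and WIPI1, below the level filter, had 0.00 ± 0.29.

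The 5 called members were also set against the controls of the other times. On all 3 sarin arrays at 24 h, LAMP1 was above and CTSB, CTSH, SCARB2 and ATP6V1C1 were below every one of the 9 control arrays of the study. They were the only ones of the 37 members tested to show this pattern, against 12.3% of all genes tested in either direction. The 9 include the 24 h controls against which the 5 were called. For LAMP1 the 9 controls ran from 6335.6 to 8117.4 with a median of 7464.6. For CTSB they ran from 3129.9 to 7442.9 and for SCARB2 from 2386.1 to 4974.1, so that both genes varied widely in untreated cells. At the level of single probe sets, 1 member probe set was higher and 5 were lower of 77, and 3.59% of all 19065 probe sets with 1 gene were called.

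**Figure D2:**
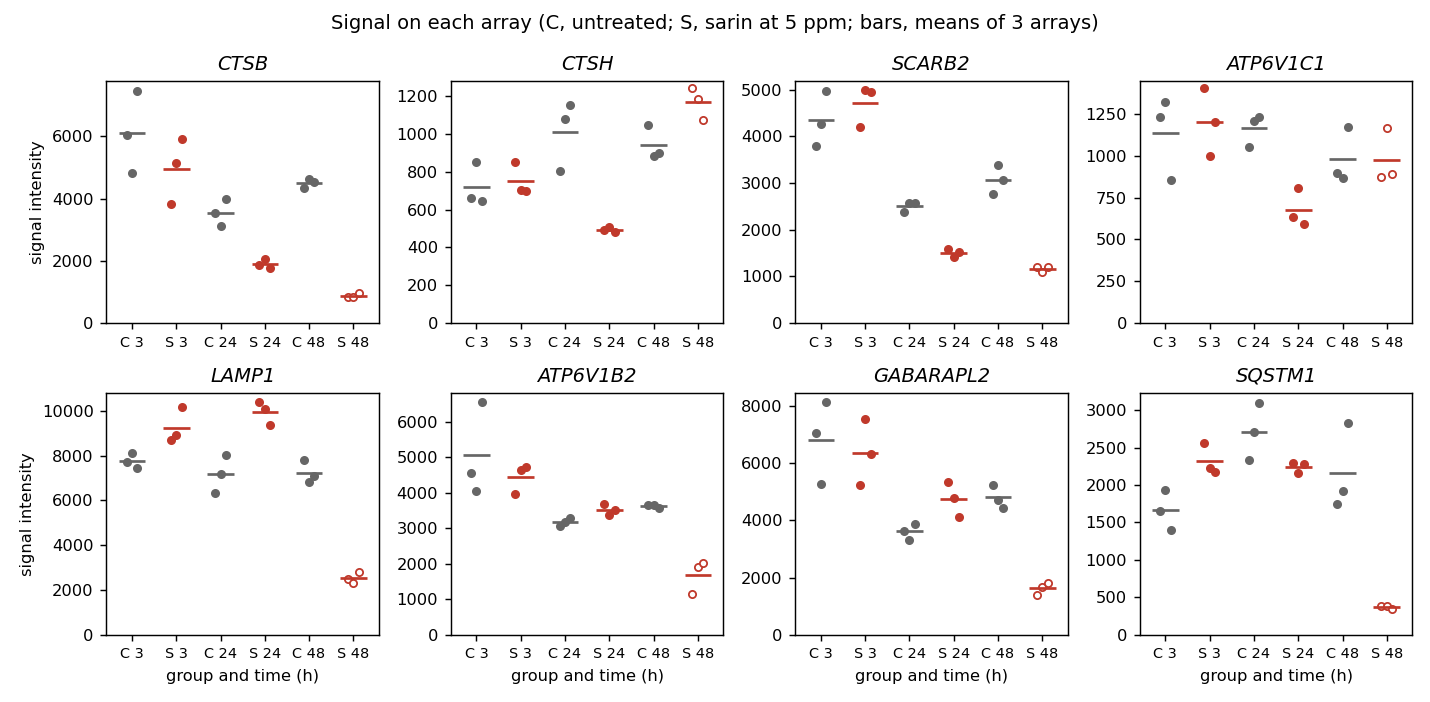
Signal intensity on each array (points) and the mean of 3 arrays (bars) for the 5 members called at 24 h and for ATP6V1B2, GABARAPL2 and SQSTM1, which changed with time in control cells; C is untreated, S is sarin at 5 ppm, numbers are hours, and open points are the sarin arrays at 48 h that stood apart. The 24 h sarin arrays for LAMP1 (9367.7 to 10411.7) lie above all 9 controls, and those for CTSH (480.1 to 507.5) lie below them.

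The calls rested unequally on single arrays and on scaling. LAMP1 was no longer called without control replicate 1 or 2 or sarin replicate 1 or 2 at 24 h (adjusted p from 0.0796 to 0.0974), and ATP6V1C1 without control replicate 2 or 3 or sarin replicate 1 or 3 (0.0748 to 0.0966), while CTSH, CTSB and SCARB2 stayed called in all 6 such fits. With the mean of all probe sets of a gene in place of the brightest, SCARB2 stayed called and CTSB had an adjusted p of 0.066. CTSH stayed called too, but it has only 1 probe set, so its own values could not change in that fit. Arrays scaled to the hybridisation spike-ins gave 0 calls among the members at 24 h, and arrays centred on their median gave 6 higher and 2 lower, with the median of all genes moved from -0.07 to 0.22. The GAPDH ratio of 3′ to 5′ signal at 24 h was 1.05 to 1.17 with sarin and 0.811 to 0.941 in the controls, and their median signals were 314.9 to 345.3 and 397 to 413.9. The part of these in the results was not tested.

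Genes of the lysosomal system are known targets of TFEB and related factors, which bind the letters CACGTG or the longer GTCACGTG, part of the CLEAR element. The whole element was not searched for. RefSeq promoter windows (GRCh38.p14, 250 bases before to 50 after a start) were at hand for 31 of the 41 members. CACGTG, which reads the same on both strands, was found in the windows of 7 of these 31 genes (22.6%) and of 8.77% of all 27305 genes with a window. GTCACGTG or its reverse complement, each of which contains CACGTG, was found in 6 members (19.4%) and in 2.93% of all genes. The windows below show the member that rose at 24 h, the other members whose printed stretch holds the longer form, and a pair that fell. Capitals mark CACGTG, each sequence reads 5′ to 3′ on the strand of its gene, and all lie upstream of the start:
LAMP1 (chr13:113297029-113297228, plus strand): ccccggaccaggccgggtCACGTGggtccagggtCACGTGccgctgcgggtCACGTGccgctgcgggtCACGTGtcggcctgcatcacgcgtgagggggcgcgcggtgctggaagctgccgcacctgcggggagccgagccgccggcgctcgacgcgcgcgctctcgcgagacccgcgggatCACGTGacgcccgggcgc
CTSA (chr20:45891275-45891324, plus strand): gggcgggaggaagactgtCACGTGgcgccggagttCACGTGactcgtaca
CTSD (chr11:1763938-1763987, minus strand): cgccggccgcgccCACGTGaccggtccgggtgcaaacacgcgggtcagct
GAA (chr17:80101491-80101570, plus strand): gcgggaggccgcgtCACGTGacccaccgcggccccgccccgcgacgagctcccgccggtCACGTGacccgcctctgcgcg
ATP6V0B (chr1:43974890-43974939, plus strand): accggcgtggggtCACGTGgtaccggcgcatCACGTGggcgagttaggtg
ATP6V0D1 (chr16:67481188-67481237, minus strand): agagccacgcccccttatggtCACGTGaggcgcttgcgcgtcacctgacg
CTSH (chr15:78945057-78945256, minus strand): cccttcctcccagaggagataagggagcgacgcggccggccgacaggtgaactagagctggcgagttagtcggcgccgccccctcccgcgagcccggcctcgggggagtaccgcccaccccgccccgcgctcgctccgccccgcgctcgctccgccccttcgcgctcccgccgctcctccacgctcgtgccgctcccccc
SCARB2 (chr4:76213835-76214034, minus strand): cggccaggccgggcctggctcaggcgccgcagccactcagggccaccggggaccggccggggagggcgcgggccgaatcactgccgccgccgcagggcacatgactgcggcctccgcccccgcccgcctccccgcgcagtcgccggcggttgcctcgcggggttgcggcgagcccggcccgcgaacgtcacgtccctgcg

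The LAMP1 stretch holds 5 copies of CACGTG and its whole window 6, and those of CTSH and SCARB2 hold 0. CD63 is the seventh member with the letters, in the shorter form only. At 24 h the log2 changes of the 7 were 0.47 (LAMP1), 0.37 (CTSA), 0.30 (ATP6V0D1), 0.05 (ATP6V0B), 0.01 (CD63), -0.03 (CTSD) and -0.10 (GAA), and LAMP1 alone of them was called. These matches are letters in a window, and the arrays do not measure binding there. No window for CTSB or ATP6V1C1 was in the table.

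At 3 h no member was called, and 0% of all genes tested were (0 of 7178 in limma, with 747 at an unadjusted p under 0.05). Among the 37 members 4 had an unadjusted p under 0.05, and their changes were 0.57 ± 0.27 (LAMP2), 0.49 ± 0.17 (SQSTM1), -0.47 ± 0.18 (ATP6V0E1) and -0.47 ± 0.18 (GABARAP), with limma adjusted p from 0.349 to 0.472. The median of the members was 0.03 and that of all genes was -0.01. GUSB and LAMP1 were above all 9 control arrays on all 3 sarin arrays at 3 h, and 5.38% of all genes tested lay beyond the controls in either direction. LAMP1 had signals of 8685.3, 8926.7 and 10155.3 there and 7709.1, 8117.4 and 7464.6 in the 3 h controls. These groups were close but did not overlap, with a change of 0.25 ± 0.12 (limma adjusted p = 0.496). Such separation from the 3 h controls held for 4 members upward and 5 downward, against 7.13% and 6.95% of all genes tested.

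The sarin effect differed between 24 and 3 h for 1 member of 37, SCARB2, and for 0.836% of all genes tested. Its signals at 3 h were 4197.3, 4986.4 and 4952.8 with sarin and 3780.7, 4257.6 and 4974.1 without, and these groups overlapped. The difference of its effects (24 h minus 3 h) was -0.85 ± 0.18 (limma adjusted p = 0.0347). It was lost in 8 of 12 fits that each left out 1 array (adjusted p up to 0.108). For CTSH the difference was -1.06 ± 0.26 and missed the threshold (limma adjusted p = 0.0635), and for ATP6V1C1 and CTSB it was -0.86 ± 0.29 and -0.59 ± 0.24 (limma adjusted p = 0.184 and 0.283).

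Several members also changed with time in untreated cells. Between 3 and 24 h, 5 of 37 were called in the controls, 4 lower and 1 higher, against 5.68% of all genes tested. The groups did not overlap for 2 members that rose and 10 that fell, against 16.5% and 8.9% of all genes tested. Over all genes this change moved with signal, from a median of 0.41 in the 718 of lowest signal to -0.18 in the 718 of highest. In these groups 0.696% and 7.8% were called lower. The highest group held 8 members, 1 of them called lower, and the next held 9, with 3 called lower. The part of this in the falls was not tested. GABARAPL2 went from 7063.9, 5273 and 8129.2 to 3637.4, 3326.1 and 3882.7, a change of -0.89 ± 0.17 (limma adjusted p = 0.0044). SCARB2 went from 3780.7, 4257.6 and 4974.1 to 2386.1, 2563.1 and 2572.3, a change of -0.78 ± 0.13 (limma adjusted p = 0.00193). In both genes all 24 h controls were below all 3 h controls. CTSB went from 6041.6, 4806.3 and 7442.9 to 3524.3, 3129.9 and 3973.3, a change of -0.76 ± 0.17 (limma adjusted p = 0.0127). ATP6V1B2, a subunit of the cytosolic sector of the pump, went from 4558.6, 4058.8 and 6543.2 to 3052.4, 3158.6 and 3276.4, a change of -0.64 ± 0.18 (limma adjusted p = 0.0446). These also separated completely. SQSTM1 went the other way, from 1660, 1938.4 and 1403 to 2336.5, 2705.6 and 3097.8, a change of 0.70 ± 0.17 (limma adjusted p = 0.0241). Thus CTSB and SCARB2 were lower at 24 h than at 3 h in untreated cells and lower again with sarin, and both comparisons use the same 24 h controls.

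Between 24 and 48 h no member was called in the controls, where 0.432% of all genes tested were (31 of 7178 in limma), and 3 members had an unadjusted p under 0.05. The calls between 3 and 24 h depended on the fit. With only the 6 arrays compared there were 0, and arrays centred on their median gave 0 higher and 18 lower. Scaling to spike-ins gave 0 higher and 23 lower, with the median of all genes at -0.70, and left out the rise of SQSTM1. Leaving out 1 control array at a time gave 2 to 6 calls, with 2 without the 24 h control replicate 2 and 3 without the 3 h control replicate 1 or the 24 h control replicate 3.

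**Figure D3:**
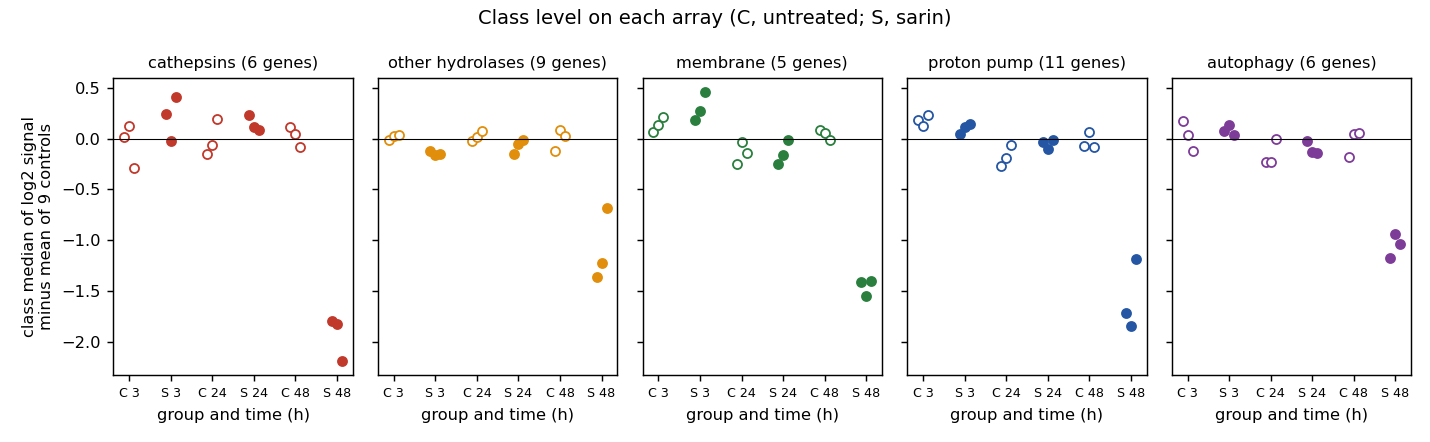
For each class, the median over its tested genes of log2 signal on each array minus the mean of the 9 control arrays; open points are untreated (C), filled points sarin (S), and numbers are hours. The class medians run from -0.16 to 0.46 on the sarin arrays at 3 h and from -0.25 to 0.23 at 24 h, and those at 48 h (-2.19 to -0.68) lie below all other arrays. In the cathepsins, where 3 of 6 genes were not above background on the 48 h sarin arrays, the median 48 h change is -1.97 as fitted and -1.14 with these at their bound.

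At 48 h most members were lower with sarin. Of 37 tested, 28 fell and 1, BECN1, rose, against 70.7% of all genes tested that were called (32.9% higher and 37.8% lower). The median change of the members was -1.42, or -1.28 with members not above background at their bound, and that of all genes was -0.08. By class the members that fell were 5 of 6 cathepsins, 7 of 9 other hydrolases, 4 of 5 membrane and transport genes, 8 of 11 proton pump genes and 4 of 6 autophagy genes. The fall moved with signal over all genes: of the 718 genes of lowest signal 11% were called lower, of the 718 of highest signal 81.2%, and of the 718 next below these 66%. Of the members in those upper groups, 8 of 8 and 7 of 9 were lower. In the next 718 genes down 4 of 4 members were lower, against 51.7% of all genes there. Across the 10 equal groups by signal, the members' fitted median was below that of all genes wherever there were members, apart from 1 group. That group held 1 member (0.28, against -0.22). Several of the members were not above background on all sarin arrays. RNA quality (the GAPDH ratio above), background signal and the distance of the 3 arrays from all others moved with this comparison. So did summed macrophage markers, which were 5087.7 to 6373.2 on these arrays and 858 to 1985.5 on the other 15, with 1 of 8 above background on all arrays and none at 0. Summed glial markers were 1111.8 to 1605.6 against at most 903, and summed noradrenergic markers 50107.8 to 60299.2 against at least 86590.8. The background signal for a single probe set was 411 to 443 on the 48 h sarin arrays. GFAP, AQP4 and S100B had at most 395.4, 225.1 and 172.7 on any array, and the macrophage markers CD14 and C1QA at most 120.2 and 260. The glial and macrophage sums thus include signals not above background and do not measure a rise of each marker in them. FCER1G, the only macrophage marker tested, was above background on all 18 arrays and was called higher at 48 h (2.30). Of the tested markers, 6 of 10 noradrenergic genes were lower at 48 h, and of 4 fibroblast genes 3 were higher and 1 was lower. The part of these in the 48 h results was not tested.

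**Figure D4:**
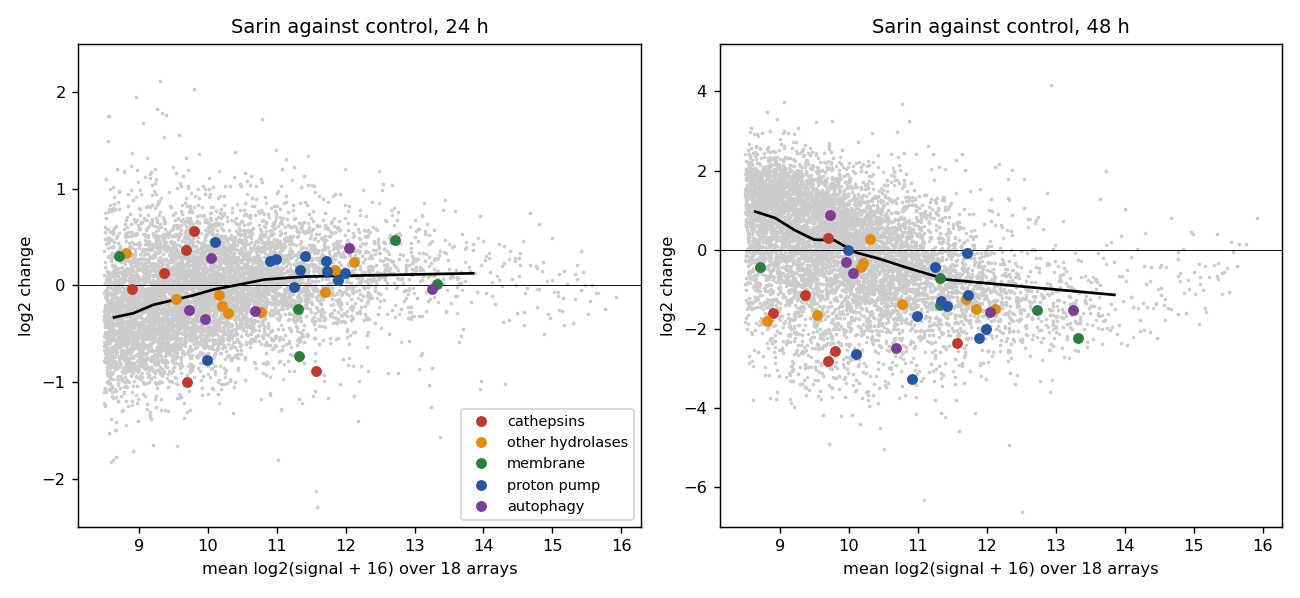
Log2 change (sarin against control) at 24 h (left) and 48 h (right) against mean log2(signal + 16) over the 18 arrays, for all 7178 genes tested (grey) and the members by class (coloured); the black line joins the medians of equal groups of genes by signal. At 48 h the line falls from 0.97 to -1.14 as signal rises, and 34 of the 37 members lie below 0.

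Among members with large fitted changes at 48 h, several were not above background on some or all of the sarin arrays, so that their fitted changes have no order. ATP6V1E1, a stalk subunit of the pump, had signals of 323.1, 177.2 and 549.2 with sarin and 2772.9, 3782.7 and 3137.2 without, a change of -3.27 ± 0.29 (limma adjusted p = 1.01e-08). ATP6V1H, a regulatory subunit, had 268.2, 93.8 and 623.4 with sarin and 1637.6, 1944.8 and 1475.8 without, a change of -2.64 ± 0.38 (limma adjusted p = 5.71e-06). In both genes only 1 of the 3 sarin arrays was above background. With each sarin array raised to its background signal they were at least 6.86-fold (ATP6V1E1) and 3.46-fold (ATP6V1H) lower. CTSB had 830.9, 821.4 and 968.3 with sarin and 4322.8, 4620.5 and 4539.1 without, a change of -2.35 ± 0.17 (limma adjusted p = 5.84e-10). CTSA had 168, 90.2 and 112 with sarin, not above background on any of the 3 arrays, and 941.4, 1208.1 and 736.6 without. Its level was thus at least 2.19-fold lower (fitted -2.82, limma adjusted p = 1.56e-09). The bound takes the control mean against the higher of the background signal and the probe set's own signal on the sarin arrays.

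The same held for CTSC, with 256, 190.6 and 96.4 against 1291.3, 1103.4 and 866.1, at least 2.49-fold lower (fitted -2.56, limma adjusted p = 4.05e-07). SQSTM1 had 380, 376.9 and 344.9 with sarin and 1752.6, 1916.5 and 2831.7 without, at least 4.87-fold lower (fitted -2.48, limma adjusted p = 4.55e-10). Both were above background on all 3 controls and on no sarin array. HEXA and CTSD were at least 1.37-fold and 1.21-fold lower on the same terms, though a dimmer HEXA probe set was higher with sarin, as given below. LAMP2, not called, was not above background with sarin either. A dimmer LAMP2 probe set had 31, 39.1 and 26.9 with sarin, not above background, and 442, 797.2 and 824.1 without. The size of its fall is thus not measured. BECN1 rose, with 1752.6, 1498.8 and 1584.1 against 1124.5, 914.9 and 621.3, a change of 0.89 ± 0.24 (limma adjusted p = 0.00264), but it was -1.14 when arrays were scaled to spike-ins. CTSZ, below the level filter, was not above background in the 48 h controls and above it on 1 of 3 sarin arrays, so no fold is given.

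The other members that fell at 48 h had changes from -2.23 (ATP6V0B) and -2.22 (CD63) to -0.43 (GAA). CD63 had 3081, 2816 and 3117.9 with sarin and 15727.2, 13068.2 and 13518.2 without. ATP6V0B had 881.9, 1367.2 and 862.4 with sarin and 4294.4, 5581.5 and 4649.1 without. In both the groups lay far apart. At 48 h the groups did not overlap for 3 members higher and 28 lower, against 34.1% and 36.6% of all genes tested. The 8 members not called were CTSH (0.30), TPP1 (0.28), LIPA (-0.33), LAMP2 (-0.43), ATP6V1A (-0.43), ATP6V1C1 (0.00), ATP6V1D (-0.08) and ATG5 (-0.31). Centred on their median, the arrays gave 0 higher and 34 lower members, with all genes at -0.64, and scaled to spike-ins 0 higher and 37 lower, with all genes at -2.08.

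Different probe sets of a gene did not tell the same story at 48 h. Of 19 members with several probe sets, 8 had at least 1 called higher and 1 called lower, and of all 4310 genes with several 14.9% did. At 24 h it was 0 of 19 and 3 of 4310 genes. Over single probe sets 14 member probe sets rose and 45 fell of 77, and 63.1% of all probe sets were called. CTSB had probe sets at -2.35 ± 0.17 and -2.60 ± 0.53 and others at 2.01 ± 0.21 and 0.61 ± 0.20. SQSTM1 had -2.48 ± 0.17 and 2.06 ± 0.40, and BECN1 had 0.89 ± 0.23 and -1.56 ± 0.27. The calls took no account of background, which was 411 to 443 with sarin and 103 to 161 in the 48 h controls. The second SQSTM1 probe set had 116.9, 443.9 and 108.4 with sarin and 28.1, 32.9 and 32.2 without. It was above background on 1 array of the study, so its 2.06 is not a measured rise. The second BECN1 probe set had 381.5, 230.3 and 171.6 with sarin, none above background, so the size of its fall is not measured. The other members called both ways were HEXA, ASAH1, SCARB2, ATP6V1D and ATG12. A second SCARB2 probe set had 1710, 1450.2 and 1619.1 with sarin and 1204.1, 1141 and 1151.2 without. The second HEXA probe set had 831, 758.1 and 614.3 with sarin, all above background. Without sarin it had 47.7, 70.4 and 87.3, none above background. For all 8 members the change given elsewhere at 48 h is that of the probe set with the highest mean signal.

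**Figure D5:**
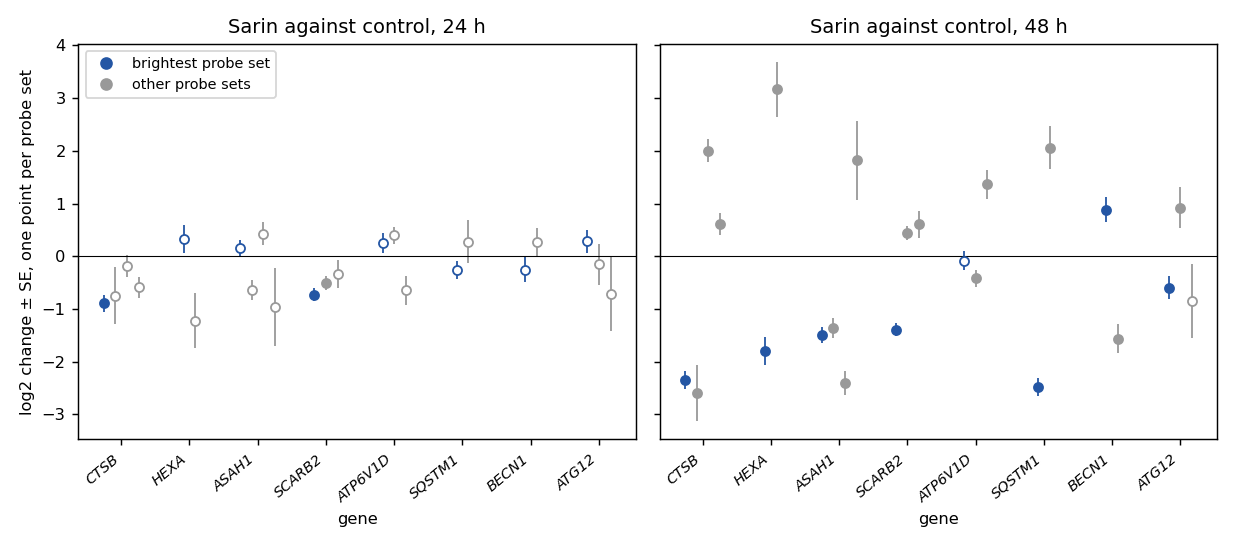
Log2 change with its standard error for each probe set of the 8 members that had probe sets called in both directions at 48 h, shown at 24 h (left) and 48 h (right); the probe set with the highest mean signal is blue, others are grey, and filled points have an adjusted p under 0.05 over all probe sets. At 48 h the CTSB probe sets run from -2.60 to 2.01. The calls took no account of background, and the higher SQSTM1 point at 48 h is not a measured rise.

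The sarin effect at 48 h differed from that at 24 h for 30 of 37 members, 26 more negative and 4 more positive, and for 63.7% of all genes tested. The fitted differences were -3.53 ± 0.41 for ATP6V1E1, -3.19 ± 0.31 for CTSA, -3.12 ± 0.42 for CTSC and -3.09 ± 0.54 for ATP6V1H, with limma adjusted p from 8.61e-08 to 7.06e-05. With sarin arrays at 48 h raised to their background signal these became -3.03, -1.50, -1.87 and -2.24, which bound the size from below. ATP6V0B and CD63, above background on all arrays, had -2.28 ± 0.22 and -2.23 ± 0.19. The 4 positive differences were 1.30 ± 0.26 (CTSH), 1.14 ± 0.34 (BECN1), 0.77 ± 0.29 (ATP6V1C1) and 0.56 ± 0.24 (TPP1), with limma adjusted p from 0.000268 to 0.0444. CTSH, lower with sarin at 24 h, had 1242.7, 1186 and 1073.5 at 48 h against 1046.3, 886.4 and 899.6 in the controls. ATP6V1C1 had 875.2, 1167.3 and 892.5 against 900.3, 867.7 and 1172.9, and these overlapped. TPP1 had 1946.4, 1308.4 and 1279.2 at 48 h against 1130.9, 1260 and 1275.7, with 1 sarin array far above the rest. All 4 positive differences became negative when arrays were scaled to spike-ins.

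Of 88 further lysosome and autophagy genes 66 were tested, and at 24 h 2 were called, both higher, against 8.67% of all genes tested. RAB7A, the small GTPase of late endosomes, had mean signals of 2558 ± 7.61 with sarin and 1889 ± 118 without (SD, n = 3 arrays each), a change of 0.44 ± 0.13 (limma adjusted p = 0.0365). ATP6V0E2, a membrane subunit of the pump, had 5162 ± 205 and 3832 ± 316 (SD, n = 3 arrays each), a change of 0.43 ± 0.12 (limma adjusted p = 0.0369). At 3 h 0 of 66 were called, with 4 at an unadjusted p under 0.05. At 48 h 20 were higher and 29 lower, with a median of -0.16, against 32.9% of all genes tested higher and 37.8% lower. The lower genes with the smallest p included LAPTM4A (-2.22), ATP6V0C (-2.26), the proton-carrying ring of the pump, and LAPTM4B (-1.78). M6PR, a receptor that sorts hydrolases to lysosomes, and MCOLN1, a cation channel, were not above background on any sarin array at 48 h and were at least 2.73-fold and 2.08-fold lower. CTSV, above background on 2 of 3, was at least 3.55-fold lower. The higher ones were MITF (1.87), a relative of TFEB, CLCN7 (1.41), a chloride transporter, DNASE2 (1.32), GALNS (1.37), ATG4A (1.20) and STX17 (1.39), a SNARE of autophagosomes.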

How the data were processed

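Total RNA was hybridised as labelled cRNA to 18 arrays, per the labels' protocols. The authors deposited linear signal intensity from MAS5, as the submitters' processing notes name it (version and scaling target: not given in the sources used here). The mean of each array without its lowest and highest 2% was 800.1 to 800.3. Of 22283 probe sets, 19065 had 1 symbol in the platform annotation, and 0 symbols changed through RefSeq (GRCh38.p14, names only). Each gene was represented by its brightest probe set, by mean log2(signal + 16), and the upper 60% of genes were tested. A model of 6 group means over all arrays was run in limma 3.58.1 (R 4.3.3; lmFit, eBayes with a trend), two-sided, with Benjamini-Hochberg adjustment over all genes and a threshold of 0.05. Fold changes are on the log2(signal + 16) scale and understate changes of dim genes. The script was tested on simulated data. With 3 arrays per group, their number limits the precision. Arrays of one number did not deviate together within a time (correlations of -0.181 to 0.0249 over 9 pairs), and no pairing was used. This check cannot exclude a shared batch, and links across times were not checked. Values on each array are given for members called at 24 h, up to 6 per direction in other comparisons, and the 2 largest changes in a class without calls; other lysosome genes are named by smallest p, up to 6 per direction. Members and lists were chosen with earlier results of these data known. Alternatives are scaling, pseudocount, level filter, probe set rule, variance model, array sets, replicate block and leaving out each array.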

Additional observations from a re-analysis of the deposited data

Results flagged for a closer look

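The sarin effect differed between times, by a limma interaction term over all genes tested, for 31 results. Between 24 and 3 h the difference was -0.85 for SCARB2 (adjusted p = 0.0347). Between 48 and 24 h it was negative for 26 members, and the arrays of sarin at 48 h stood apart from all others.

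Among the cathepsins these differences (48 h minus 24 h) were -3.19 for CTSA, -1.45 for CTSB, -3.12 for CTSC, -1.56 for CTSD and -1.29 for CTSL. Among the other hydrolases they were -2.13 for HEXA, -1.11 for GUSB, -1.65 for ASAH1, -1.73 for PSAP, -1.18 for PPT1 and -1.51 for MAN2B1. Among membrane genes they were -1.99 for LAMP1, -2.23 for CD63 and -0.66 for SCARB2.

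In the proton pump they were -2.28 for ATP6V0B, -1.72 for ATP6V0D1, -2.13 for ATP6V0E1, -1.29 for ATP6V1B2, -3.53 for ATP6V1E1, -3.09 for ATP6V1H, -1.44 for ATP6AP1 and -1.93 for ATP6AP2. In autophagy they were -2.22 for SQSTM1, -1.49 for GABARAP, -1.95 for GABARAPL2 and -0.87 for ATG12. The difference was positive for CTSH (1.30), TPP1 (0.56), ATP6V1C1 (0.77) and BECN1 (1.14). The adjusted p of these 30 ran from 2.21e-08 to 0.0444.

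On the sarin arrays at 48 h CTSA, CTSC, CTSD, HEXA and SQSTM1 were above background on 0 of 3 arrays and CTSL, MAN2B1, ATP6V1E1 and ATP6V1H on 1, so that their fitted differences are not measured sizes. With those arrays raised to their background signal the differences were -1.50, -1.87, -0.25, -0.78 and -2.02 for the first 5 genes, and -0.82, -0.89, -3.03 and -2.24 for the others. GUSB, above background on 2 of 3, had -1.02.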

How the results depend on the processing

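At 24 h, 5 members were called; 3 were with quantile normalization, 8 with arrays centred on their median (3 of the 5 among them), 0 with spike-in scaling, 2 with the mean of all probe sets, and 3 to 4 when leaving out 1 array. Against the 3 h and 48 h controls 7 were, all 5 among them, and no direction among the 5 turned under any alternative run. For the effect at 24 h minus 3 h, 1 member was called; 2 were in the upper 40% by level and without the sarin 48 h arrays, 0 centred on the median, with spike-in scaling or with no trend, 3 with array weights, and 0 to 2 when leaving out 1 array. In the controls between 3 and 24 h 5 were called; 3 were with quantile normalization, 18 centred on the median, 23 with spike-in scaling, 2 with the mean of all probe sets, 8 without the sarin 48 h arrays, 0 with only the arrays compared, and 2 to 6 when leaving out 1. At 48 h leaving out 1 array gave 27 to 31 calls, and for 48 h minus 24 h 28 to 30. At 3 h, and in the controls between 24 and 48 h, every alternative run gave 0.

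The direction turned in these cases, whose cause was not tested. With spike-in scaling BECN1 at 48 h became -1.14 and SQSTM1 in the controls between 3 and 24 h -0.10, and the 48 h minus 24 h differences became -0.75 for CTSH, -1.50 for TPP1, -1.27 for ATP6V1C1 and -0.93 for BECN1. Centred on the median those of TPP1 and ATP6V1C1 became -0.29 and -0.080. With the mean of all probe sets BECN1 at 48 h became -0.34, and the differences became 0.022 for CTSB, 0.41 for SCARB2, -0.35 for BECN1 and 0.020 for ATG12.

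A fit with the replicate number as a block called 5 members at 24 h, 30 at 48 h, 1 for 24 h minus 3 h, 29 for 48 h minus 24 h and 6 in the controls between 3 and 24 h, and 0 in the other 2 comparisons.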
